A study of Gallus gallus with 6 samples.

Results

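Fibrillar collagens are the rope-like proteins that give connective and scar tissue its tensile strength, and a small set of enzymes and chaperones folds and cross-links them. Chain, cross-linking and chaperone genes of this system were followed in injured chicken lenses treated with the vehicle DMSO or with GSK-J4, a drug that enters cells and blocks the H3K27 demethylases KDM6A and KDM6B. The genes were chosen by name as fibrillar collagen chains, lysyl oxidases, a collagen chaperone and a lysyl hydroxylase, 10 in all, and 8 of them had a row among the 24356 genes of the deposited tables. COL11A1 and LOX, the remaining pair, had no row under those names and were not analysed here. With GSK-J4, transcripts of all 5 chains in this set and of the cross-linking enzyme LOXL2 fell, between 1.87-fold for COL5A2 and 5.6-fold for COL1A2. Of other fibrillar chains, COL2A1 and COL24A1 did not pass the test, and COL27A1 did, lower, but not in all alternatives. The chaperone SERPINH1 and the lysyl hydroxylase PLOD2 did not pass the test.

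The explants came from a culture model of the lens after cataract surgery and were grown in medium with 10% fetal bovine serum. DMSO or GSK-J4 was given daily from day 1 to day 3 after injury. The age of the lenses, the GSK-J4 dose and whether a library is 1 lens or a pool are not stated in the labels. There were 3 libraries per group, labelled as replicates, and no label says that they are separate animals or cultures. All p-values therefore rest on how these libraries vary, and some of that variation may be technical.

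As background, a fibrillar procollagen is a trimer. Type I collagen combines alpha-1 chains from COL1A1 with an alpha-2 chain from COL1A2, type III is built from COL3A1 alone, and type V, from COL5A1 and COL5A2, starts and limits the width of type I fibrils. In the endoplasmic reticulum, lysyl hydroxylases modify lysines of the chains and the collagen-specific chaperone SERPINH1 (HSP47) stabilises the folded helix. Outside the cell, lysyl oxidases convert lysines to aldehydes that form the covalent links between molecules. After lens injury, epithelial cells left on the capsule can become matrix-producing cells that lay down such collagens, a change seen in posterior capsule opacification.

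Libraries held between 14862268 and 22541756 counts assigned to genes. The 8 genes had at least 44 counts in every library and all passed the filter on low counts. The 14 lens markers with a row, of 16 listed, were detected, with a summed level of 149206 to 171534 CPM (counts scaled to a common library size, TMM-normalised) with DMSO and 165335 to 204965 CPM with GSK-J4. In that list 1 gene was called higher and 0 lower (edgeR, with 4 and 0 at an unadjusted p below 0.05, and 4 and 0 called by DESeq2). Libraries of a group differed in the summed level of genes on the female-specific chromosome W. It was 390.4, 938 and 910 CPM in DMSO replicates 1, 2 and 3. With GSK-J4 it was 15.6 to 763 CPM, lowest in GSK-J4 replicate 3, so the GSK-J4 libraries are not repeats of 1 sample. The W level was not matched between the groups, and its part in the changes was not tested. Values without GSK-J4 replicate 3 are given for each of the 8 genes, for the summed chains and for the ratios to COL1A1. Over all genes, edgeR's quasi-likelihood test on 12583 of them called 502 (3.99%) lower and 132 (1.05%) higher with GSK-J4, at an adjusted p below 0.05. Against this background, 6 of the 8 collagen and cross-linking genes were lower and 0 were higher. The CPM of the 2 groups did not overlap, with GSK-J4 lower, for those same 6 genes and for 13.5% of all tested genes. The median log2 fold change was -1.48 for the 8 genes, and that of all tested genes was 0.01. Counts of lower genes were 5 without GSK-J4 replicate 2, 5 without GSK-J4 replicate 3, and 6 or 7 without any other library. In these bulk samples, fewer cells of a type and less RNA per cell cannot be told apart.

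**Figure D1:**
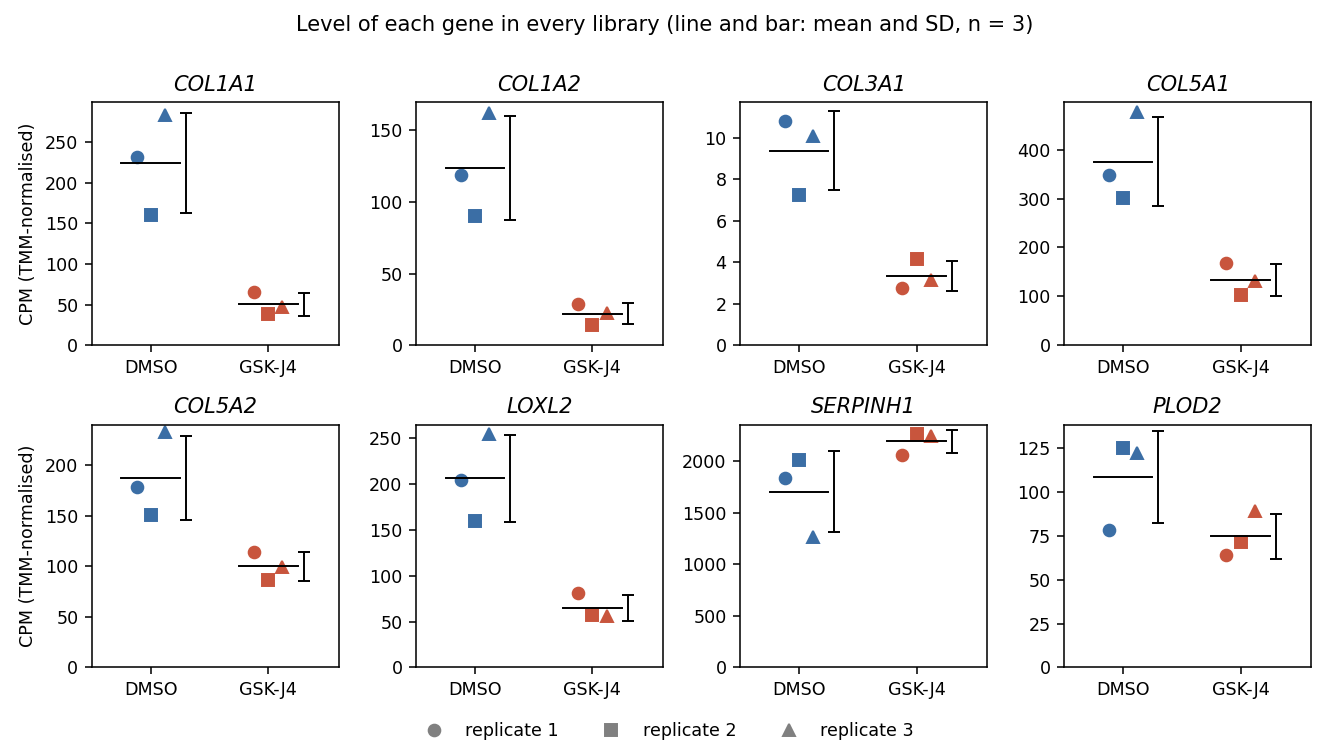
TMM-normalised CPM (linear axis from 0) of the 8 genes in each library, with symbols for replicates 1 to 3, a line for the mean and a bar for the SD (n = 3 per group). The groups do not overlap for COL1A1, COL1A2, COL3A1, COL5A1, COL5A2 and LOXL2, which are lower with GSK-J4, or for SERPINH1, which is higher, and they overlap for PLOD2.

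The type I collagen genes had the largest changes of the set. COL1A1 (ENSGALG00000041555, chromosome 27 at 5538288 to 5555467, with coordinates as in the deposited tables, whose genome build is not given) stood at 231, 160.2 and 283 CPM in DMSO replicates 1, 2 and 3, and at 65.5, 38.2 and 47.2 CPM in GSK-J4 replicates 1, 2 and 3. The lowest DMSO library was thus well above the highest GSK-J4 library. The log2 fold change of COL1A1 was -2.16 (95% interval -2.67 to -1.65), with an edgeR adjusted p of 0.000441. COL1A2 (ENSGALG00000009641, chromosome 2 at 23572966 to 23610978) stood at 119, 90.0 and 162 CPM with DMSO and at 28.9, 14.5 and 22.8 CPM with GSK-J4. Its groups did not overlap either, and the log2 fold change was -2.49 (95% interval -3.09 to -1.89, edgeR adjusted p = 0.000605). Ranked from the lowest fold change among the 12583 tested genes, COL1A2 came at place 49 and COL1A1 at place 94. Without GSK-J4 replicate 3 the values were -2.12 for COL1A1 and -2.52 for COL1A2.

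Both type V collagen genes fell, with smaller estimated changes than the type I genes. COL5A1 (ENSGALG00000002546, chromosome 17 at 7734269 to 7862385) stood at 347, 301 and 478 CPM in DMSO replicates 1, 2 and 3 and at 168, 102 and 130.5 CPM in GSK-J4 replicates 1, 2 and 3. Its log2 fold change was -1.49 (SE 0.20, edgeR adjusted p = 0.00165), and it was -1.47 without GSK-J4 replicate 3 (adjusted p = 0.014). COL5A2 (ENSGALG00000031112, chromosome 7 at 504980 to 619779) went from 179, 150.3 and 233 CPM to 114, 86.1 and 99.4 CPM. Here too the groups did not overlap, but the gap between the lowest DMSO and the highest GSK-J4 library was narrower than for the type I genes. The log2 fold change of COL5A2 was -0.91 (SE 0.16, edgeR adjusted p = 0.00988). COL5A2 was no longer called when GSK-J4 replicate 2 or 3 was left out (adjusted p = 0.0798 and 0.0596), where the log2 fold changes were -0.80 and -0.90.

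COL3A1 (ENSGALG00000035584, chromosome 7 at 618031 to 671774), which encodes the only chain of type III collagen, was a rare transcript in every library. It had 190, 124 and 168 counts, or 10.8, 7.24 and 10.1 CPM, in DMSO replicates 1, 2 and 3. In GSK-J4 replicates 1, 2 and 3 it had 44, 89 and 44 counts, or 2.75, 4.16 and 3.16 CPM. All GSK-J4 libraries lay below all DMSO libraries, and the log2 fold change was -1.47 (SE 0.25, edgeR adjusted p = 0.00672). Without GSK-J4 replicate 3 it was -1.43 (adjusted p = 0.0427). On log2(FPKM + 0.1) the change was -1.33 and on log2(FPKM + 1) it was -0.71, and COL3A1 was not called on either scale (limma adjusted p = 0.0752 and 0.0696). The annotated ends of COL3A1 and COL5A2 overlap by 1749 bases on opposite strands. No source used here says whether counting used the strand, and if it did not, reads from that stretch cannot be told apart.

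LOXL2 (ENSGALG00000000402, chromosome 22 at 1351044 to 1386815), a lysyl oxidase that acts on fibrillar and basement membrane collagens, fell with the chains. DMSO replicates 1, 2 and 3 held 204, 159 and 255 CPM and GSK-J4 replicates 1, 2 and 3 held 81.4, 57.1 and 56.4 CPM. The groups did not overlap, and the log2 fold change was -1.67 (95% interval -2.09 to -1.25, edgeR adjusted p = 0.000639). Without GSK-J4 replicate 3 it was -1.57. The calls of LOXL2, COL1A1, COL1A2 and COL5A1 held in each of the 16 alternative analyses, with adjusted p no higher than 0.0077, 0.0259, 0.0288 and 0.0214.

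The intracellular helpers of collagen assembly did not pass the test. SERPINH1 (ENSGALG00000011214, chromosome 1 at 196648341 to 196655118) was among the most abundant transcripts of the explants, at the 99.1 percentile of tested genes by FPKM (fragments per kilobase of gene length, scaled by library size) with DMSO. It stood at 1842, 2010.0 and 1265 CPM with DMSO and at 2064, 2268 and 2245 CPM with GSK-J4. The groups did not overlap, with GSK-J4 higher, as did 10.8% of all tested genes in that direction. Its log2 fold change of 0.36 (95% interval 0.02 to 0.71) had an edgeR adjusted p of 0.237 (unadjusted 0.0421), and was 0.19 without DMSO replicate 3, the lowest library, and 0.35 without GSK-J4 replicate 3. PLOD2 (ENSGALG00000006783, chromosome 9 at 11648159 to 11698175), which hydroxylates the telopeptide lysines used for cross-links, stood at 78.3, 125 and 122 CPM with DMSO and at 63.7, 71.6 and 88.9 CPM with GSK-J4. DMSO replicate 1 lay below the highest GSK-J4 library, so the groups overlapped. The log2 fold change of PLOD2 was -0.54 (95% interval -0.94 to -0.13, edgeR adjusted p = 0.132). PLOD2 was called lower without DMSO replicate 1 (-0.72, adjusted p = 0.00924), with library totals in place of TMM (-0.64, adjusted p = 0.0484) and with the replicate number as a block (-0.52, adjusted p = 0.0179). Without GSK-J4 replicate 3 it was -0.68 (adjusted p = 0.144).

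**Figure D2:**
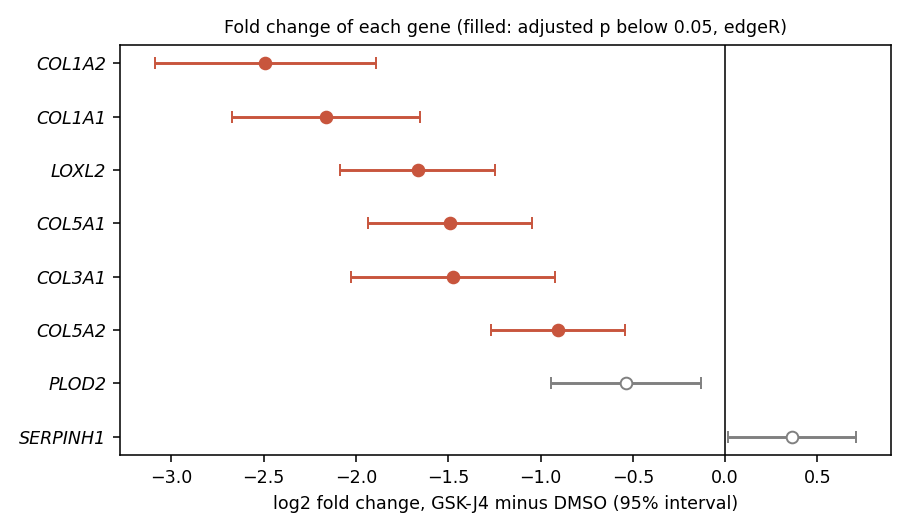
Log2 fold change of each gene, GSK-J4 minus DMSO, with its 95% interval from the edgeR fit (3 libraries per group). Filled points passed an adjusted p of 0.05. COL1A2 lies lowest at -2.49, and the open points of PLOD2 and SERPINH1 lie at -0.54 and 0.36.

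Among DMSO libraries, replicate 3 was highest for 5 of the 8 genes and replicate 2 was lowest for 6. The same 5 genes, COL1A1, COL1A2, COL5A1, COL5A2 and LOXL2, were highest in replicate 1 among the GSK-J4 libraries, where replicate 2 was lowest for all of them but LOXL2, which was lowest in replicate 3. COL3A1, SERPINH1 and PLOD2 were lowest in GSK-J4 replicate 1. Within the DMSO group the highest library exceeded the lowest by 1.77-fold for COL1A1 and 1.55-fold for COL5A2. SERPINH1 ran the other way in the DMSO group, with its lowest level in replicate 3.

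Levels of different genes were compared per length, on the deposited FPKM. With DMSO, SERPINH1 stood highest at 554 ± 118 FPKM, followed by LOXL2 at 62.5 ± 15.5, COL1A1 at 55.5 ± 16.1, COL5A1 at 49.0 ± 12.9, PLOD2 at 38.6 ± 9.63, COL5A2 at 36.9 ± 8.97, COL1A2 at 32.5 ± 10.1 and COL3A1 at 1.58 ± 0.325 FPKM (SD, n = 3 each). SERPINH1 and COL3A1 stood apart, whereas the ranges of each neighbouring pair from LOXL2 to COL1A2 overlapped. These ranges run across libraries and ignore that the genes were measured in the same ones. Within each DMSO library LOXL2 exceeded COL1A1 (ratios 1.09, 1.22 and 1.10) and COL5A1 lay below COL1A1 (0.794, 0.994 and 0.892). The order of PLOD2 and COL5A1 varied between libraries. With GSK-J4 the order was SERPINH1 at 718 ± 30.8, PLOD2 at 26.7 ± 4.39, COL5A2 at 19.8 ± 2.93, LOXL2 at 19.8 ± 4.52, COL5A1 at 17.5 ± 4.48, COL1A1 at 12.5 ± 3.56, COL1A2 at 5.83 ± 1.95 and COL3A1 at 0.565 ± 0.119 FPKM (SD, n = 3 each). COL1A1 thus stood in the third place with DMSO and in the sixth with GSK-J4. In the GSK-J4 order COL1A2 did not overlap with COL1A1, and the neighbours from COL5A2 to COL1A1 overlapped. Within each GSK-J4 library COL5A1 exceeded COL1A1 (ratios 1.36, 1.41 and 1.46), while the order of COL5A2 and LOXL2 varied. The lowest PLOD2 library (23.0 FPKM) lay narrowly above the highest COL5A2 library (22.8 FPKM).

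The summed level of the 5 chains was 168, 132 and 227 FPKM in DMSO replicates 1, 2 and 3 and 69.6, 44.2 and 54.6 FPKM in GSK-J4 replicates 1, 2 and 3. Every GSK-J4 library was thus below every DMSO library. The means were 176 ± 48.0 and 56.2 ± 12.8 FPKM (SD, n = 3 each), a 3.13-fold difference, which was 3.08-fold without GSK-J4 replicate 3. An exact two-sided permutation test gave p = 0.1, the smallest value that 3 against 3 libraries allow.

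The make-up of that sum, which covers only the 5 chains of the set, was described by the share of each chain. The sum leaves out COL2A1, at mean 26.5 FPKM with DMSO and 28.3 FPKM with GSK-J4. Also left out are COL24A1 (20.2 and 22.6 FPKM) and COL27A1 (1.22 and 0.538 FPKM). COL1A1 took 31.5% ± 1.90 of the summed FPKM with DMSO and 22.0% ± 1.3 with GSK-J4, and COL1A2 took 18.4% ± 0.705 and 10.2% ± 1.39 (SD, n = 3 each). Shares were higher with GSK-J4 for the type V chains, with COL5A2 going from 21.2% ± 0.916 to 35.6% ± 2.79, and COL5A1 from 28.0% ± 1.46 to 31.0% ± 0.906 (SD, n = 3 each). For these 4 chains the libraries of the groups did not overlap, while COL3A1 stood at 0.914% ± 0.150 and 1.07% ± 0.462 (SD, n = 3 each) with overlap. In exact two-sided permutation tests the p was 0.1 for each of the 4, the smallest possible, and 0.8 for COL3A1, or 0.125 and 0.8 adjusted over the 5 chains. Shares of a sum are not independent of each other.

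**Figure D3:**
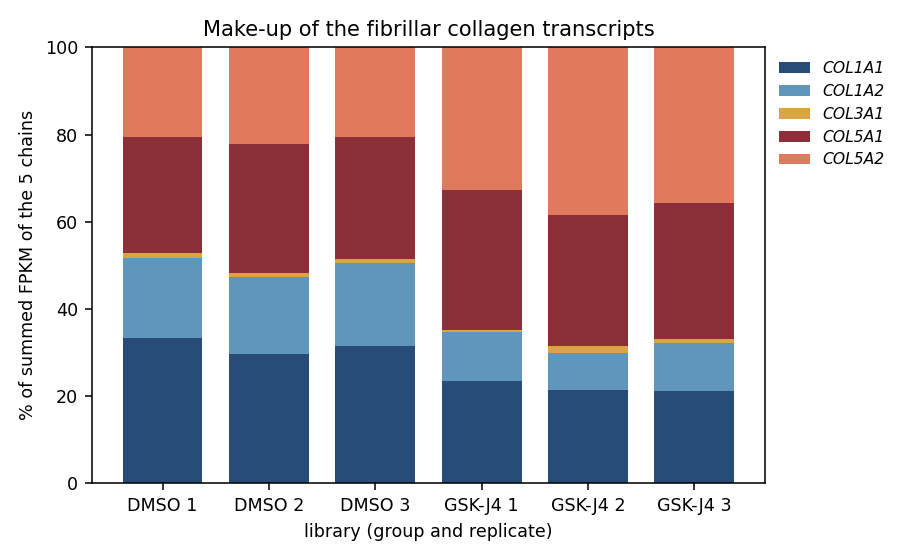
Percentage of the summed FPKM of the 5 chains taken by each chain, as stacked bars for each of the 6 libraries (linear axis from 0 to 100%). Other fibrillar chains are not included. The COL5A2 segment is 20.6% to 22.2% in the DMSO libraries and 32.8% to 38.4% in the GSK-J4 libraries, and the COL1A1 and COL1A2 segments are smaller with GSK-J4.

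Relative to COL1A1 in the same library, a measure that does not depend on library scaling, the other genes did not keep a fixed proportion in the group means. The FPKM ratio of COL1A2 to COL1A1 was 0.548, 0.599 and 0.610 in DMSO replicates 1, 2 and 3, and 0.470, 0.404 and 0.515 in GSK-J4 replicates 1, 2 and 3. All GSK-J4 ratios lay below the DMSO ratios, by a mean log2 difference of -0.34. For COL5A2 the ratio was 0.617, 0.749 and 0.656 with DMSO and 1.39, 1.80 and 1.68 with GSK-J4. This is a change from less to more COL5A2 than COL1A1 per length, with a log2 difference of 1.27. COL5A1 had ratios of 0.794, 0.994 and 0.892 against 1.36, 1.41 and 1.46 and a log2 difference of 0.66. The ratio of LOXL2 to COL1A1 differed by 0.50 on the log2 scale, that of PLOD2 by 1.64 and that of SERPINH1 by 2.55. For SERPINH1 this was 10.5, 16.6 and 5.91 FPKM per FPKM of COL1A1 with DMSO and 41.7, 78.6 and 63.0 with GSK-J4. The libraries of the groups did not overlap for 6 of the 7 ratios, the exception being COL3A1 (log2 difference 0.67). Exact two-sided permutation tests gave p = 0.1 for those 6, the smallest possible with 3 against 3, and p = 0.3 for COL3A1, or 0.117 and 0.3 adjusted over the 7 ratios. Without GSK-J4 replicate 3 the log2 differences were -0.42 for COL1A2, 1.24 for COL5A2, 0.64 for COL5A1, 0.56 for LOXL2, 1.48 for PLOD2, 2.50 for SERPINH1 and 0.68 for COL3A1. All 7 share the COL1A1 values. The differences largely restate the fold changes given above, since any gene that fell less than COL1A1 rises relative to it.

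**Figure D4:**
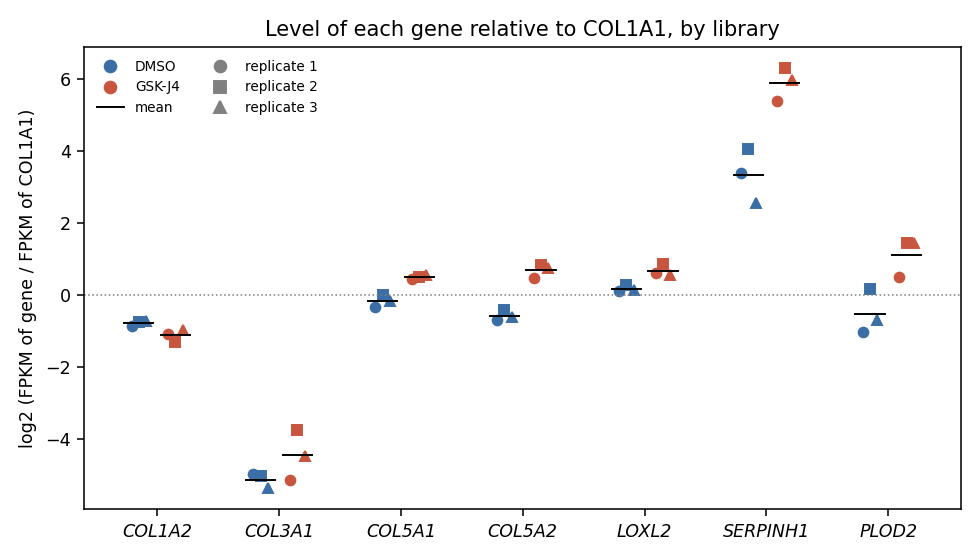
Log2 of each gene's FPKM over the COL1A1 FPKM of the same library, by group (colour) and replicate (symbol), with lines at the group means (n = 3). Means with DMSO and GSK-J4 are -0.77 and -1.12 for COL1A2, -0.57 and 0.69 for COL5A2, and 3.34 and 5.88 for SERPINH1.

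Other genes of the collagen pathway were followed from synthesis to breakdown. Of the other fibrillar chains, 3 had a row. Of these 3, 1 was lower, against 3.99% of all tested genes, and 0 were higher. COL2A1, the chain of type II collagen of cartilage and vitreous, stood at 26.5 ± 7.14 FPKM with DMSO and 28.3 ± 2.31 FPKM with GSK-J4 (SD, n = 3 each), with a log2 fold change of 0.08 (edgeR adjusted p = 0.843). COL24A1 was not called either (0.14, adjusted p = 0.858). COL27A1 was lower at -1.20 (adjusted p = 0.0475), a call that was lost without any single library other than DMSO replicate 2, with adjusted p up to 0.193.

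Among the 16 tested genes for procollagen modification and folding, 0 were called in either direction by edgeR, and their fold changes ran from -0.51 to 0.62 on the log2 scale with a median of -0.08. DESeq2 called 1 of them higher. At the ends were P3H3 (-0.51, adjusted p = 0.128), a gene of the prolyl 3-hydroxylase family, and TMEM38B (0.62, adjusted p = 0.1), an ion channel of the endoplasmic reticulum. P4HA2 (-0.39, adjusted p = 0.152), a catalytic subunit of prolyl 4-hydroxylase, and P3H4 (-0.28, adjusted p = 0.174) had the next smallest p. Unadjusted p was below 0.05 for P3H3, TMEM38B, P4HA2, P3H4 and PPIB, the last named after its value was seen, and for 2403 of all 12583 tested genes.

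Of 10 tested genes for export of procollagen from the endoplasmic reticulum, 1 was higher, against 1.05% of all tested genes, and 0 were lower. SEC23A, a coat protein of the vesicles involved, was the higher gene. It rose from 164 ± 15.1 to 223 ± 12.3 CPM (SD, n = 3 each, edgeR adjusted p = 0.0391). Its call was lost with library totals in place of TMM and without any single library other than DMSO replicate 2, with adjusted p up to 0.16. In the extracellular processing list, 1 of 7 tested genes was lower, against 3.99% of all tested genes. ADAMTS2, which removes the amino-terminal propeptide of fibrillar procollagens, stood at 7.74, 8.23 and 15.2 CPM with DMSO and at 5.13, 2.94 and 3.66 CPM with GSK-J4. The groups did not overlap, at a log2 fold change of -1.42 (adjusted p = 0.0267), but adjusted p rose to 0.093, 0.143 and 0.115 when replicate 3 of DMSO, 2 of GSK-J4 or 3 of GSK-J4 was left out.

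The tested cross-linking enzymes other than LOXL2 were not called, with 0 of 3 in either direction. LOX, which had no row under that name, is not among them. LOXL4, named after its value was seen, did not pass the filter on low counts. LOXL1, a relative of LOXL2, stood at 65.6 ± 7.42 FPKM with DMSO and 52.7 ± 4.76 FPKM with GSK-J4 (SD, n = 3 each). Its log2 fold change was -0.32 (edgeR adjusted p = 0.152, unadjusted p = 0.0185). The CPM of its groups did not overlap, with GSK-J4 lower, as for 13.5% of all tested genes. LOXL3 (-0.06, adjusted p = 0.885) and the transglutaminase TGM2 (0.23, adjusted p = 0.369) had unadjusted p above 0.05, and DESeq2 also called 0 of the 3.

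Fibril-associated collagens and small regulators of fibril assembly were lower for 4 of 13 tested genes, against 3.99% of all tested genes. In this list 0 were higher, and the median log2 fold change was -0.94. Among the 4 are ASPN and LUM, which are nearly absent with GSK-J4 and passed the low-count filter through the DMSO libraries, so the count and the median only describe the list. When genes had to exceed 1 CPM in 3 libraries, LUM was not tested, COL12A1 was not called (adjusted p = 0.0514), and 2 genes, THBS2 and ASPN, were lower. ASPN still passed only through the DMSO libraries, as it stood at 0.94, 0.56 and 0.22 CPM with GSK-J4. THBS2, at 0.876, 1.12 and 1.29 CPM with GSK-J4, would not have passed on the GSK-J4 libraries alone. That filter is therefore no check on either call. At an unadjusted p below 0.05, 7 were lower and 1 was higher, and DESeq2 called 5 and 1. The gene higher at that unadjusted p was SPARC, named after its value was seen (0.38, edgeR adjusted p = 0.101). SPARC was the most abundant tested gene of this list. Its DMSO libraries held 3327, 3182 and 2689 CPM, against 3784, 3896 and 4252 CPM in the GSK-J4 libraries. These did not overlap, as for 10.8% of all tested genes in that direction. THBS2, a matricellular protein needed for normal fibril shape in mice, had 6.82 ± 3.27 CPM with DMSO against 1.10 ± 0.209 with GSK-J4 (SD, n = 3 each, edgeR adjusted p = 0.0024). The proteoglycan gene ASPN had 5.51 ± 3.12 against 0.571 ± 0.362 CPM (SD, n = 3 each, edgeR adjusted p = 0.00503). LUM, a corneal proteoglycan, had 16, 13 and 22 counts with DMSO and 0, 3 and 2 with GSK-J4 (adjusted p = 0.029), and COL12A1, which sits on the surface of type I fibrils, fell by 0.73 on the log2 scale (adjusted p = 0.0433). The calls of LUM and COL12A1 were lost when DMSO replicate 3 or GSK-J4 replicate 2 or 3 was left out, and the list then held 2 lower genes. LUM also lost its call without GSK-J4 replicate 1. Adjusted p reached 0.111 for LUM and 0.202 for COL12A1.

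Collagen receptors moved in both directions, with 1 of 8 tested genes higher and 2 lower, against 1.05% and 3.99% of all tested genes. DDR2, a receptor kinase that binds fibrillar collagen, stood at 57.0, 61.1 and 61 CPM with DMSO and at 90.7, 112 and 106 CPM with GSK-J4. Its log2 fold change was 0.78 (edgeR adjusted p = 0.00274), and the call held without each single library. ITGA11, an integrin subunit for type I collagen, stood at 16.2, 11.3 and 16.0 CPM with DMSO and at 4.82, 2.38 and 3.94 CPM with GSK-J4. This was a log2 fold change of -1.98 (edgeR adjusted p = 0.00175). ADGRG1, an adhesion receptor that binds type III collagen in mice, was lower at -0.73 (adjusted p = 0.0271), a call lost without DMSO replicates 1 or 3 or GSK-J4 replicates 2 or 3 (adjusted p up to 0.16). ITGA2 (0.35, adjusted p = 0.282), a subunit of another collagen-binding integrin, was not called.

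In the list for collagen breakdown and its inhibitors, 2 of 8 tested genes were lower, against 3.99% of all tested genes, and 0 were higher. All 8 fold changes were below 0, as were 6019 of the 12583 over all tested genes. The gelatinase gene MMP2 (-2.02, edgeR adjusted p = 0.00385) and TIMP3 (-1.45, adjusted p = 0.00175), an inhibitor of such proteases, were the lower genes. MMP9 (-0.99, adjusted p = 0.0749) and TIMP2 (-0.43, adjusted p = 0.0857) were not called with all libraries, and the list count was 4 without DMSO replicate 2 and 4 with DESeq2. At an unadjusted p below 0.05, 7 of the 8 were lower and 0 higher, against 2403 of all 12583 tested genes in either direction. The list's median log2 fold change was -0.87, and -0.49 without DMSO replicate 3. MMP13, named after its value was seen, enters this median with few counts in most libraries. It had 13, 33 and 157 counts with DMSO and 12, 23 and 4 with GSK-J4.

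**Figure D5:**
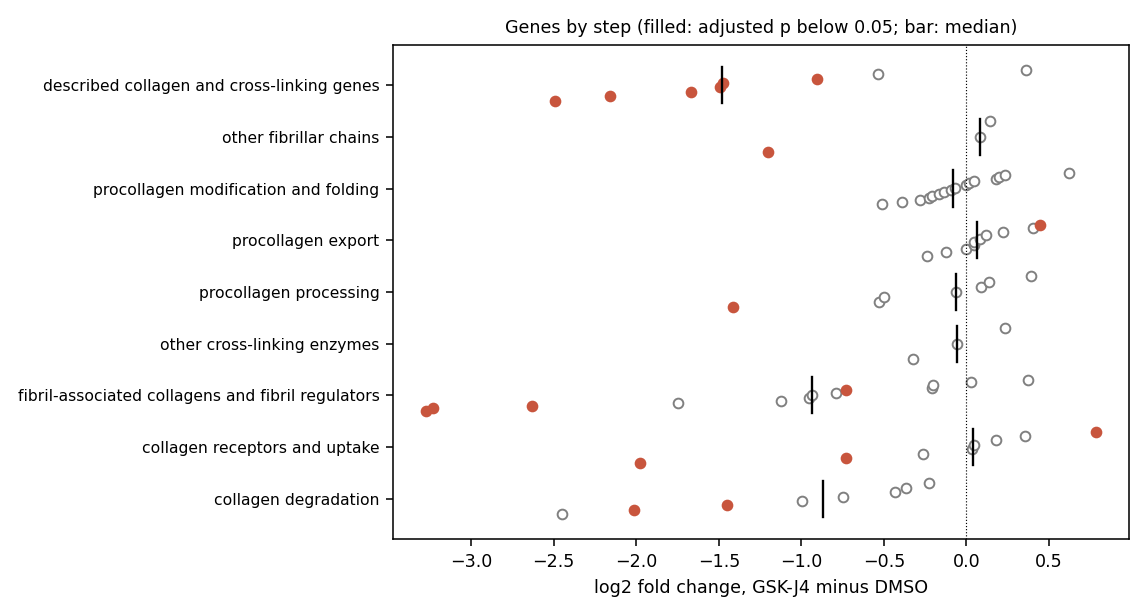
Log2 fold change, GSK-J4 minus DMSO, of every tested gene by step of the collagen pathway, with filled points for an edgeR adjusted p below 0.05 and a bar at each list's median. The medians are -1.48 for the 8 genes described first, -0.08 for modification and folding, 0.07 for export, -0.94 for fibril regulators and -0.87 for breakdown.

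Markers of cell types other than lens, some of which make fibrillar collagen, were also read. The 10 fibroblast and periocular mesenchyme markers with a row summed to 120.3 to 148 CPM with DMSO and 104 to 164 CPM with GSK-J4, so the groups overlapped. PDGFRA made up most of this, with a DMSO mean of 94.0 CPM and a GSK-J4 mean of 108 CPM. The sum therefore mainly follows this gene and can mask lower levels of the others. Of the 6 tested markers, 2 were lower, against 3.99% of all tested genes. These were LUM and, named after its value was seen, THY1 (-1.67, edgeR adjusted p = 0.00642). LUM passed the low-count filter through the DMSO libraries, so the number of calls only describes the list. At an unadjusted p below 0.05, 3 of the 6 were lower and 0 higher, and DESeq2 called 2 lower and 0 higher. The third was PDGFRB, named after its value was seen, with a DMSO mean of 4.93 ± 1.15 CPM against 2.72 ± 0.509 after GSK-J4 (SD, n = 3 each, log2 fold change -0.86, edgeR adjusted p = 0.117) and no overlap between the groups. Pericyte and smooth muscle markers summed to 50.9 to 79.0 and 58.8 to 79.5 CPM, for 4 tested genes, and cartilage and bone markers to 109 to 163 and 128 to 143 CPM, mostly from COL2A1. In the last list, 1 of 6 tested genes was lower, against 3.99% of all tested genes. This was CNMD, named after its value was seen (-1.68, edgeR adjusted p = 0.0276), and MATN3 had 0 counts in all libraries. At an unadjusted p below 0.05, 2 of these 6 were lower and 1 was higher. The lower genes were CNMD and SOX9, the latter named after its value was seen (-0.52, edgeR adjusted p = 0.226) and with groups that overlapped. The higher gene was BGLAP, named after its value was seen (0.61, edgeR adjusted p = 0.131), and its groups did not overlap. Vascular endothelium summed to 18.8 to 31.4 and 22.8 to 33.1 CPM, with CDH5 at 0 counts in every library. The sums were at most 8.37 CPM for blood and immune cells, 3.44 CPM for pigmented epithelium, 8.22 CPM for neural retina and 0.187 CPM for striated muscle precursors, where HBBA, TYR, MYOG, MYF5, PAX7 and MYMK had 0 counts in every library. None of the tested genes in these 4 lists, the endothelial list or the pericyte list was called by edgeR or DESeq2, and 0 had an unadjusted p below 0.05, though few passed the filter on low counts. The part of non-lens cells in the collagen changes was not tested.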

How the data were processed

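RNA sequencing of 6 chicken lens explant libraries was analysed, with groups and replicate numbers from the sample titles. The authors deposited raw counts, which are whole numbers, for 24356 genes. The deposited FPKM table was checked against it: each value equals the count over gene length and over 1 factor per library, within rounding, with an implied total of 0.874 to 0.979 of the library's counts. Per the submitters' processing notes, DESeq2 1.20.0, StringTie 1.3.3b, featureCounts 1.5.0-p3 and HISAT2 2.0.5 were among the tools, with no role given. No source used here names the genome build or the strand setting. Replicates differed by more than sampling noise (chi-square per degree of freedom 10.9 to 35.5), so all were counted separately. The biological coefficient of variation was 16.9%.

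The main test was edgeR 4.0.16 (R 4.3.3) on these counts, after filterByExpr and TMM scaling, by the robust quasi-likelihood method with no covariate besides treatment, Benjamini-Hochberg adjusted over 12583 genes and called below 0.05. The SE is the log2 fold change over the square root of F. CPM are TMM-normalised. Single values (ratios, sums, shares) were compared with exact permutation tests. Alternatives used other scalings and filters, DESeq2 1.42.0, limma 3.58.1 (voom, and trend on log2 FPKM), the replicate number as a block, and each library left out.

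The genes, the lists and the rule for named genes (all of the 10, up to 4 with the smallest p per pathway list, and the top or absent markers) were chosen with earlier results of these data known. One marker result is not reported here. COL2A1, COL9A1, LUM, DCN, KERA, OGN and DPT stand in both a pathway and a marker list. List genes without a symbol in the table were named through the NCBI identifiers in their descriptions, using RefSeq's GRCg7b gene table for names only.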

Additional observations from a re-analysis of the deposited data

How the results depend on the processing

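The 8 collagen and cross-linking genes kept their direction in all 16 alternatives, and their calls changed only for COL3A1, COL5A2 and PLOD2, as given above. The 8 genes gave 5 to 7 lower and 0 higher calls over the 16 alternatives, and the ratios to COL1A1 and the summed FPKM kept their direction in each setting tried. Over all tested genes, lower calls numbered 320 on log2(FPKM + 0.1) and 301 on log2(FPKM + 1), and 203 to 590 when 1 library was left out. They numbered 723 with DESeq2, 723 with the replicate block, 667 with library totals and 613 with no filter. Higher calls numbered 269 with no filter, 325 with DESeq2, 87 on log2(FPKM + 1), 406 with the replicate block, and 42 to 271 when 1 library was left out. Of the other fibrillar chains, 0 were lower with the filter of more than 1 CPM in 3 libraries, limma-voom, log2(FPKM + 0.1) or log2(FPKM + 1), and 0 to 1 when 1 library was left out. For modification and folding, 1 gene was lower with the replicate block, 1 was higher with no filter or DESeq2, and 0 to 1 were higher when 1 library was left out. For export, 0 were higher with library totals and 0 to 2 when 1 library was left out. For processing, 0 were lower on both FPKM scales and 0 to 1 when 1 library was left out. Fibril regulators had 2 lower with the filter of more than 1 CPM or on both FPKM scales, 1 higher with no filter or DESeq2, and 2 to 6 lower when 1 library was left out. Receptors had 1 lower on both FPKM scales and 1 to 2 when 1 library was left out. The breakdown list had 4 lower with DESeq2 and 2 to 4 when 1 library was left out. The cause of these differences was not tested. Medians of the export, receptor and other fibrillar chain lists lie near 0 and changed sign with library totals (-0.03, -0.05 and -0.01). Leaving out 1 library also changed the sign of some medians. Among these were modification and folding (0.007 without DMSO replicate 2), processing (0.047 without DMSO replicate 1) and other cross-linking enzymes (0.08 without GSK-J4 replicate 2). The other fibrillar chain median ran from -0.19 without DMSO replicate 3 to 0.34 without DMSO replicate 1.

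Same-numbered libraries of the groups deviated together with correlations across genes of 0.297, 0.17 and 0.043 for numbers 1, 2 and 3, and 5 of 6 libraries correlated best with their own number, a hint of pairing. The numbers were not taken to pair the samples because the correlation for number 3 was below 0.1. With the replicate block, 7 of the 8 genes were lower, PLOD2 (-0.52, adjusted p = 0.0179) being added. COL3A1 and the low pathway genes LUM and ASPN rest on few counts, which limits their precision.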
